A study of Homo sapiens with 15 samples.

Results

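The genes described here are 152 solute carriers, the membrane proteins that move amino acids, sugars, metals, ions, vitamins and mitochondrial metabolites, in IMR90 cells made senescent with RAS and depleted of METTL14. They were selected on symbol and measured level, as protein-coding genes whose symbol has the form SLC, a number, the letter A and a number, with a mean of at least 5 CPM (counts scaled to a common library total) in 1 or more of 5 groups. Of 335 such genes among the 57736 rows of the table, 84 had no count in any library, 94 had counts and stayed below that level, and 5 that reached it were left out by name (SLC7A11, SLC2A1, SLC2A3, SLC16A1 and SLC16A3). The remaining 152 are 45.4% of the 335, and the test's expression filter removed none of them. Because the genes were chosen by these same CPM values, and a gene that passed through 1 group only had to be higher there, counts over the set are a description. In all, 123 members reached 5 CPM in every group and 6 in 1 group only. Just inside the limit stood SLC25A45, at 5.02 CPM in knockdown cells, and SLC13A3, at 5.12 in siControl RAS cells, and just outside stood SLC7A7 at 4.86 and SLC22A5 at 4.49.

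Gene expression was measured in IMR90, an established line of human fetal lung fibroblasts, in 15 bulk libraries of 5 groups with 3 libraries each. Control cells received a control retrovirus without RAS and a non-targeting siRNA (siControl). In the other groups a retrovirus brought in RAS, an oncogene whose activity makes fibroblasts senescent, so that they stop dividing for good. These cells received siControl (siControl RAS cells), or an siRNA against METTL14 (siMETTL14). The siMETTL14 cells were given a vector, named in the labels only as vec (knockdown cells), or a lentivirus with wild-type METTL14 (wild-type add-back) or with METTL14 that has the R298P substitution (R298P add-back). The first siRNA was given at day 4 after the retrovirus, a second siRNA and the lentivirus on the next day, and RNA was taken 48 hours later. METTL14 and METTL3 together form the enzyme that places N6-methyladenosine on RNA, and R298P is known to weaken that activity. Genotypes are labelled as knockouts and knock-ins, although the protocols describe siRNA and lentivirus. Whether control and siControl RAS cells carried a lentiviral vector, and which RAS gene was used, is not stated by the labels. In bulk RNA, fewer cells of a type and less RNA per cell cannot be told apart.

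Solute carriers set what a cell can take up, exchange and compartmentalise. Some work alone, such as the sodium-coupled glutamine transporters of the SLC38 family, and others need a partner, such as the amino acid exchanger SLC7A5, which reaches the cell surface as a heterodimer with the heavy chain SLC3A2. In cultured fibroblasts amino acid carriers feed protein synthesis and mTORC1 signalling, SLC25 carriers join the cytosol to the mitochondrial matrix, and SLC11, SLC31, SLC30, SLC39 and SLC40 proteins handle iron, copper and zinc.

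Library totals ran from 4917661 to 7763084 counts (median 5853195), so that 1 count stood for 0.129 to 0.203 CPM, and members held 0.69% to 0.787% of the counts. METTL14 stood at 19.1, 21.2 and 23.3 normalised CPM in control libraries, at 26.2, 19.3 and 20.5 in siControl RAS libraries and at 9.35, 4.94 and 3.94 in knockdown libraries, at 508 to 564 in wild-type add-back and at 892 to 1038 in R298P add-back libraries. Knockdown against siControl RAS cells gave a log2 change of -1.91 (SE 0.21, edgeR adjusted p = 5.49e-06). The add-backs differed from each other in METTL14 level as well as in sequence (log2 -0.79 for wild-type against R298P, edgeR adjusted p = 0.0322). All 7 fibroblast markers were detected and summed to 10507 to 10686 CPM in control, 21631 to 22650 in siControl RAS and 17843 to 18601 in knockdown libraries. Against the sum, VIM and THY1 were lower with RAS (log2 -1.04 and -0.52) and higher with knockdown (0.45 and 0.43). The other 5 were higher with RAS. Of the markers of other cell types, CDH1, KRT5, KRT14, CDH5, ERG and CD3E had 0 counts in every library, and PTPRC, KDR, VWF, CD14 and EPCAM reached at most 2, 4, 5, 15 and 19 counts in any library. Of 4 epithelial markers tested, KRT18 and KRT19 moved with the conditions: the summed epithelial list lay at 119 to 128 CPM in control, 34.9 to 52.7 in siControl RAS and 78.7 to 89 in knockdown libraries. Of the leukocyte and endothelial markers only CD68 and TEK were tested, and both were called higher with RAS, with list sums of at most 23.7 and 37.4 CPM in any library of these 3 groups. Whether these lists have a part in the transporter changes was not tested. Levels below are TMM-normalised CPM, given per library or as mean ± SD (n = 3 libraries). Changes are log2 fold changes from edgeR's two-sided quasi-likelihood test with their SE. A gene is called where the Benjamini-Hochberg adjusted p over 13516 genes is under 0.05, with no fold minimum. Nothing in the labels tells whether replicate libraries were separate cultures, and the spread behind these p-values may therefore be technical.

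In siControl RAS against control cells more transporters rose than fell, while more mitochondrial carriers fell than rose. Of 152 members 53 (34.9%) were called higher, beside 24.0% of all genes tested, and 31 (20.4%) were called lower, beside 21.9%. Among genes with a mean of at least 5 CPM, 27.3% were called higher and 25.9% lower. In all 84 members (55.3%) were called, beside 45.9% of all genes and 53.2% of genes with a mean of at least 5 CPM. The median member changed by 0.18, and the median over all genes by -0.0037. The libraries of the 2 groups did not overlap for 97 members (63.8%), beside 54.2% of all genes and 60.0% of genes with a mean of at least 5 CPM. At least 2-fold changes were found for 28 of the higher and 6 of the lower members, beside 1656 and 1157 of all 13516 genes. With a mean of at least 5 CPM over all 15 libraries, the counts were 25 and 4 of 142 members. They stood beside 1242 and 883 of 10367 genes. Sugar and polyol carriers (6 higher, 0 lower of 10), lipid and choline carriers (5 higher, 0 lower of 8), amino acid carriers (10 higher, 4 lower of 25), inorganic ion carriers (7 and 2 of 20) and zinc carriers (6 and 3 of 17) had more members up than down. Mitochondrial SLC25 carriers had 3 higher and 12 lower of 34, with a median of -0.22. Nucleotide sugar carriers (1 and 2 of 5) and vitamin carriers (1 and 2 of 4) also had more members lower, with medians of -0.34 and -0.54. No test was made of one class against another.

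In knockdown against siControl RAS cells, 23 members (15.1%) were called, beside 15.5% of all genes and 19.2% of genes with a mean of at least 5 CPM. The share of members that changed was thus near the first background and below the second. Their direction was uneven: 19 were lower (12.5%, beside 8.06% of all genes) and 4 were higher (2.63%, beside 7.47%). Among genes with a mean of at least 5 CPM, 9.89% were lower and 9.32% higher. The 4 higher members were SLC38A1, SLC4A4, SLC25A39 and SLC25A6. The lower members included 6 amino acid carriers (SLC38A5, SLC3A2, SLC6A15, SLC7A1, SLC7A2 and SLC7A5), the metal carriers SLC11A2, SLC31A1, SLC39A14 and SLC25A37, and SLC16A6, SLC44A1, SLC25A36, SLC43A3, SLC22A17, SLC20A1, SLC2A13 and SLC23A2. The libraries of the 2 groups did not overlap for 51 members (33.6%), beside 30.0% of all genes and 33.7% of genes with a mean of at least 5 CPM. The median change was -0.12 over members and -0.0028 over all genes. This comparison and the one against control share the siControl RAS libraries, so the values of the 2 are set side by side for each gene and no overlap between them is counted.

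**Figure D1:**
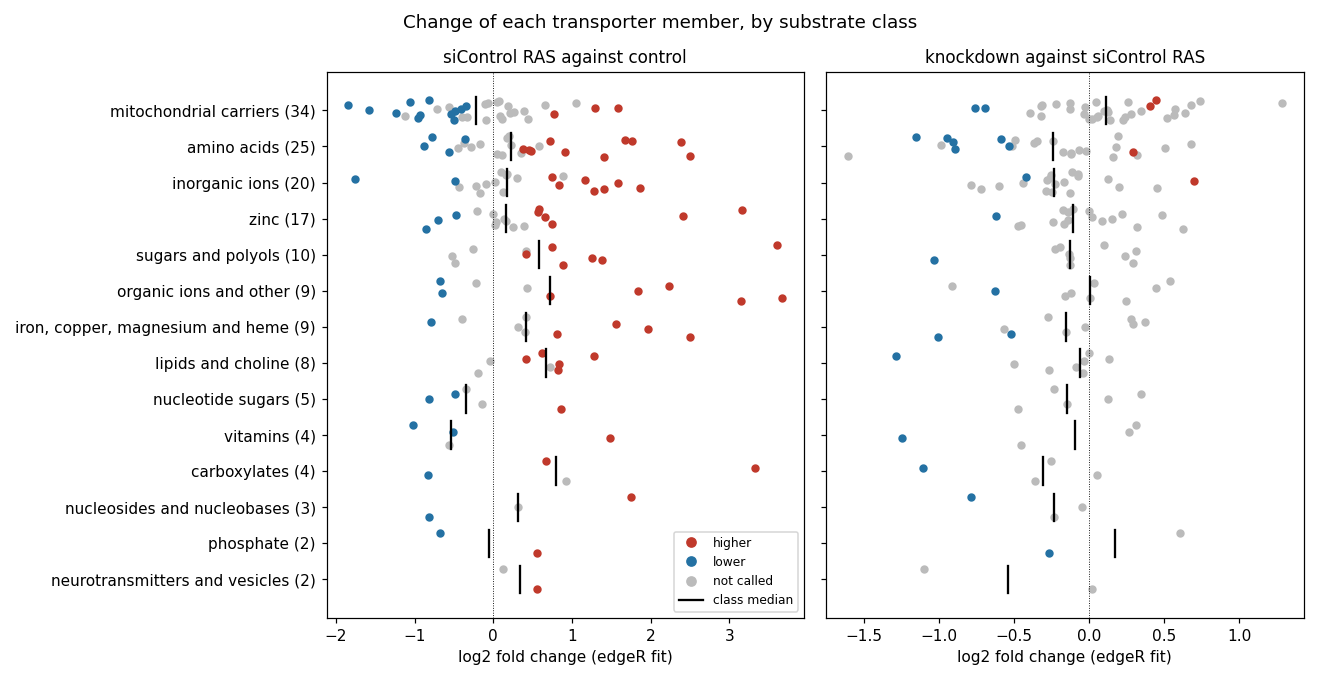
Log2 fold change of each of 152 members (points, x axis) by substrate class (y axis, number of members in brackets), coloured by call, with the class median as a black bar, for siControl RAS against control (left) and knockdown against siControl RAS (right). Mitochondrial carriers have their median below 0 on the left (-0.22) and above 0 on the right (0.11).

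**Figure D2:**
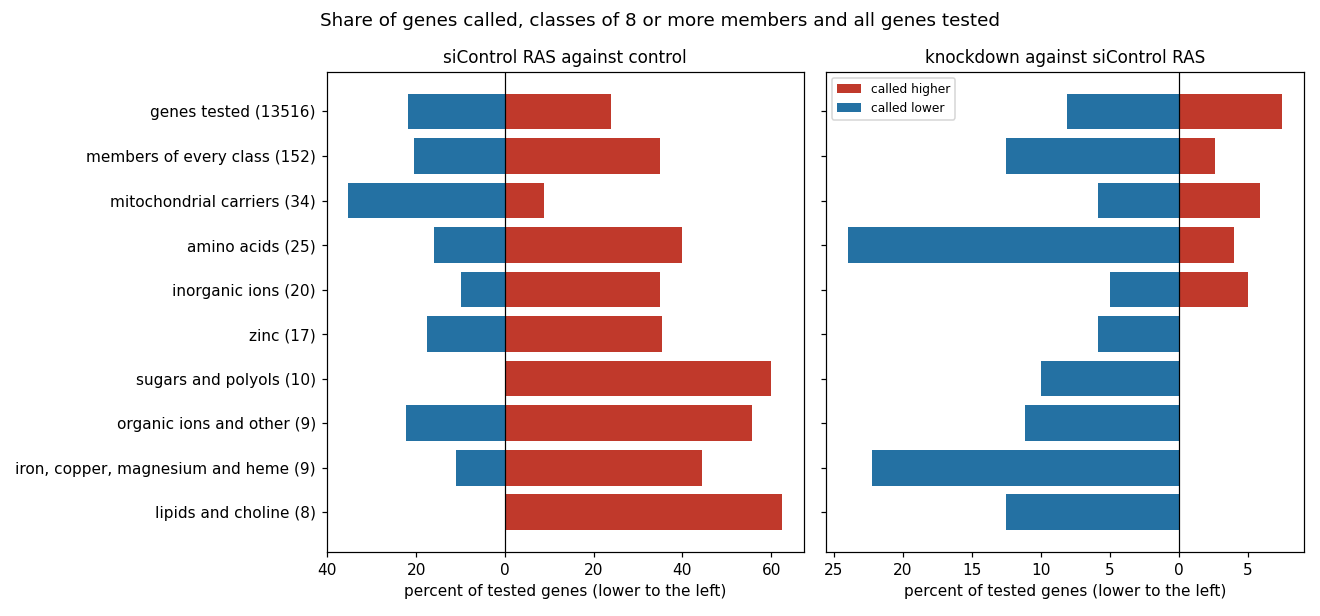
Percent of tested genes called higher (red, to the right) and lower (blue, to the left) in classes of 8 or more members, in all members and in all 13516 genes tested. Amino acid carriers had 24% lower after knockdown, beside 8.06% of all genes.

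Amino acid carriers divided in senescent cells between the surface exchanger SLC7A5 with its heavy chain, SLC7A1 and SLC38A1, which fell, and 10 carriers that rose. SLC7A5, the exchanger of leucine and other large neutral amino acids, measured 131, 141 and 145 CPM in control libraries, 76.8, 86.4 and 79.9 in siControl RAS libraries and 43.3, 34.6 and 31.8 in knockdown libraries. The 3 groups did not overlap, and the order control, siControl RAS, knockdown held in every library. The change was -0.78 (SE 0.11, edgeR adjusted p = 6.14e-07) with RAS and a further -1.15 (SE 0.12, edgeR adjusted p = 5.19e-09) with knockdown. SLC3A2, the heavy chain that carries SLC7A5 to the surface, measured 105, 103 and 93.2 CPM in control, 55.7, 52.3 and 55.8 in siControl RAS and 38.4, 37.0 and 38.1 in knockdown libraries. It kept the same order without overlap (log2 -0.88, SE 0.12, edgeR adjusted p = 2.30e-07 with RAS, and log2 -0.53, SE 0.13, edgeR adjusted p = 0.00274 with knockdown). Against control cells, knockdown cells therefore had SLC7A5 lower by 1.93 and SLC3A2 lower by 1.41 on the log2 scale. SLC7A6, another light chain of SLC3A2, and the neutral amino acid carriers SLC43A1 and SLC43A2 were called in neither comparison.

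SLC7A1, the main arginine and lysine carrier, followed the same order, at 102 ± 4.94 CPM in control, 80.3 ± 5.33 in siControl RAS and 53.1 ± 12.5 in knockdown cells. Its fall with RAS (log2 -0.35, SE 0.13, edgeR adjusted p = 0.0302) lost its call without control replicate 1 or 3 or siControl RAS replicate 1 or 3 (edgeR adjusted p of 0.0617 to 0.116) and with DESeq2 (0.0672), while its fall with knockdown (log2 -0.59, SE 0.14, edgeR adjusted p = 0.00235) kept its call in every fit made. SLC7A2, a second carrier of cationic amino acids, did not differ detectably with RAS and was lower after knockdown, at 18.0, 19.7 and 17.8 CPM in siControl RAS and 7.32, 14.5 and 6.73 in knockdown libraries (log2 -0.95, SE 0.28, edgeR adjusted p = 0.0187). That call was lost without knockdown replicate 1 or 3 or siControl RAS replicate 2 (edgeR adjusted p of 0.0624 to 0.128). SLC38A5, which carries glutamine and histidine, went from 41.7 ± 5.23 CPM in control to 54.1 ± 4.72 in siControl RAS and 29.2 ± 3.96 in knockdown cells, where its 3 libraries lay below those of both other groups (log2 -0.89, SE 0.16, edgeR adjusted p = 6.73e-05). Its rise with RAS was small (log2 0.37, SE 0.15, edgeR adjusted p = 0.0453) and ended without any of 4 libraries (control replicate 2 or 3, siControl RAS replicate 2 or 3), with DESeq2 (adjusted p = 0.0585), with upper-quartile scaling (0.0708) or with no filter on low counts (0.0705).

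Sodium-coupled carriers of glutamine and other neutral amino acids went different ways. SLC38A2, the amino acid carrier with the most counts, measured 725, 754 and 712 CPM in control, 1026, 1008 and 979 in siControl RAS and 1033, 876 and 975 in knockdown libraries. It rose with RAS (log2 0.46, SE 0.06, edgeR adjusted p = 6.24e-08) and was not called after knockdown (log2 -0.06, edgeR adjusted p = 0.555). SLC38A1, its close relative, did the reverse: 176, 198 and 167 CPM in control, 129.5, 122 and 114 in siControl RAS and 157, 144 and 147 in knockdown libraries (log2 -0.56, SE 0.10, edgeR adjusted p = 9.53e-06 with RAS, and log2 0.29, SE 0.10, edgeR adjusted p = 0.0371 with knockdown). Knockdown libraries lay above all siControl RAS libraries and below all control libraries, but the knockdown call was lost without knockdown replicate 1 or 3 or siControl RAS replicate 2 or 3 (edgeR adjusted p of 0.0627 to 0.147) and with DESeq2 (adjusted p = 0.051). SLC6A15, a carrier of branched-chain amino acids and proline, showed the largest swing of the class among members with a mean above 10 CPM. It measured 18.3, 16.6 and 19.6 CPM in control, 86.4, 105 and 94.6 in siControl RAS and 45.9, 54.6 and 52.4 in knockdown libraries (log2 2.39, SE 0.14, edgeR adjusted p = 2.29e-16 with RAS, and log2 -0.90, SE 0.13, edgeR adjusted p = 1.95e-06 with knockdown), so knockdown libraries lay between the other groups without overlap. SLC6A6, the taurine carrier, rose from 13.4 ± 2.12 to 45.5 ± 4.65 CPM (log2 1.76, SE 0.18, edgeR adjusted p = 4.47e-10) and stood at 35.7 ± 3.97 after knockdown, which was not called. Other members called higher with RAS were SLC1A1, SLC1A2, SLC6A8, SLC6A9, SLC36A4 and SLC38A10, of which none was called after knockdown.

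SLC1A5, the glutamine exchanger ASCT2, was called in neither comparison, at 67.8 ± 3.70, 70.1 ± 2.93 and 64.7 ± 4.92 CPM in control, siControl RAS and knockdown cells, with log2 changes of 0.05 (SE 0.11) and -0.12 (SE 0.11). SLC1A4, its relative ASCT1, had 3.27 ± 1.16 CPM in control and 3.48 ± 1.61 in siControl RAS cells, too few counts for so small a change to be detectable (log2 0.11, SE 0.48). Summed over the 25 amino acid members, levels were 1626 to 1696 CPM in control, 1942 to 1994 in siControl RAS and 1681 to 1819.8 in knockdown libraries. SLC38A2 made up much of each sum.

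**Figure D3:**
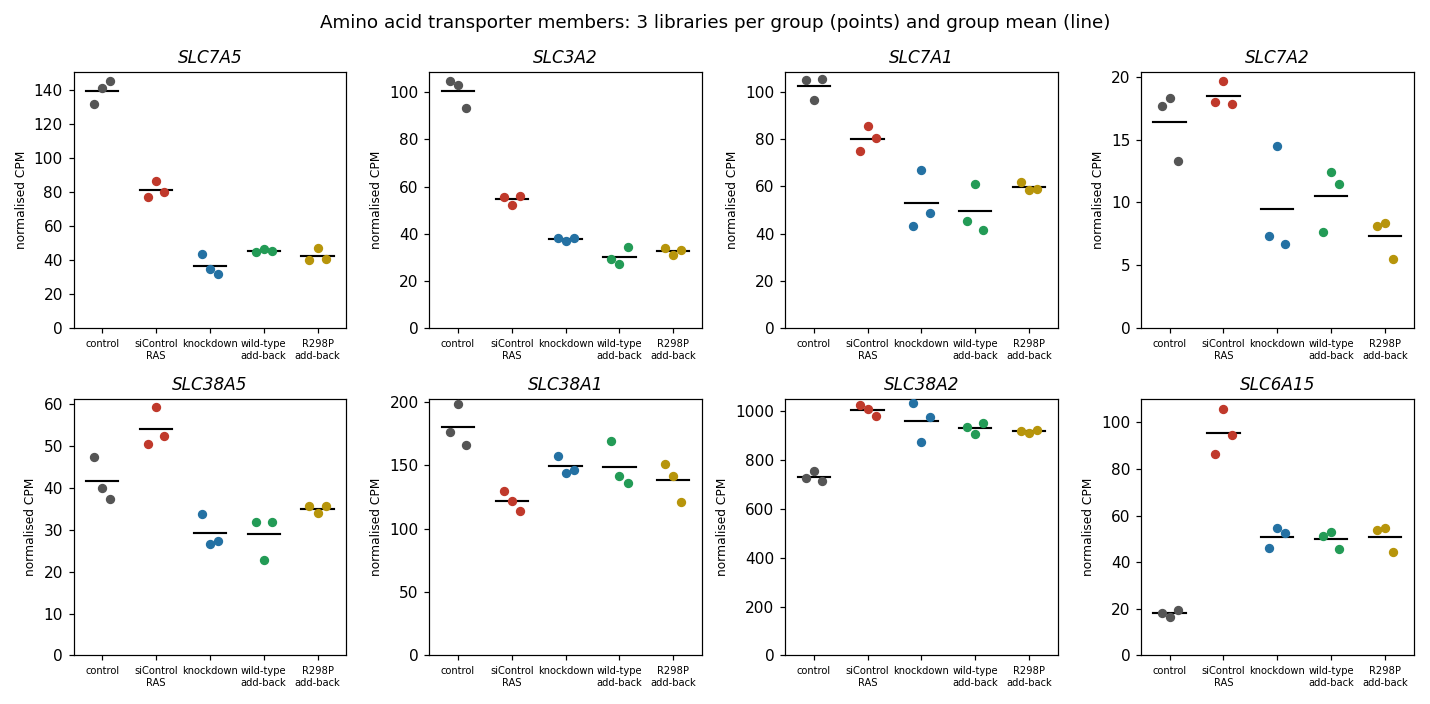
Normalised CPM (y axis, from 0) of 8 amino acid carriers in 15 libraries (points) and group means (lines), by group. SLC7A5 and SLC3A2 step down from control to siControl RAS to knockdown cells, while SLC6A15 is highest in siControl RAS cells (95.5 CPM) and SLC38A1 lowest there (122 CPM).

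The 250 bases before the annotated start of SLC7A5, SLC3A2 and SLC38A1 are shown because the first 2 encode partners of a heterodimer that fell together and SLC38A1 alone of the class rose after knockdown. For every gene searched only the first start listed was used, so other annotated starts were not searched. They are from RefSeq (GRCh38.p14), written 5′ to 3′ on the strand of the gene, with matches to the AP-1 element TGANTCA or to the ATF4 and C/EBP element TGATGNAAN on either strand in capitals. The windows are chr16:87869508-87869757 (minus strand) for SLC7A5, chr11:62881449-62881698 (plus strand) for SLC3A2 and chr12:46266517-46266766 (minus strand) for SLC38A1.
SLC7A5: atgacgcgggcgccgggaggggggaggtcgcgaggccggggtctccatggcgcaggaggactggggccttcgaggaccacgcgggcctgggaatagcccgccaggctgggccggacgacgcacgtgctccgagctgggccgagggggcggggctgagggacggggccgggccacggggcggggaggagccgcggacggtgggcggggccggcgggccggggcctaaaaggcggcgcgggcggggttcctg
SLC3A2: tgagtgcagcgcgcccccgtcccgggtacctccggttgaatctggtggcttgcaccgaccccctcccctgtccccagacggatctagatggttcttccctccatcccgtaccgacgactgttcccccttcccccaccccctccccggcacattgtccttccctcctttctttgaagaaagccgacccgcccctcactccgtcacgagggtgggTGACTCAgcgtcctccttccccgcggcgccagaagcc
SLC38A1: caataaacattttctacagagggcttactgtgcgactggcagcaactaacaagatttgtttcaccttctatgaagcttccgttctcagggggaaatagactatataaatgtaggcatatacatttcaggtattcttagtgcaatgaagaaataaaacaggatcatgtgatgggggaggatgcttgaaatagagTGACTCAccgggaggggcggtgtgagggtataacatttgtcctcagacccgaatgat
SLC3A2 and SLC38A1 each hold 1 match to the AP-1 element, at 37 and 57 bases before the start, and the SLC7A5 window holds none. Of 152 members 124 matched a promoter in the RefSeq table, and 5 of these (4.03%), among them 3 of 21 amino acid carriers (14.3%), hold the AP-1 letters, beside 6.6% of 27305 promoters searched over the same length. The ATF4 letters are in 1 member, SLC25A11 (0.806%), beside 3.17% of all promoters. The metal response element TGCNCNC is in 50.8% of members and 48.4% of all promoters (both strands). The kappa B element, searched as GGG, any 5 bases and CC, is in 70.2% of members and 53.7% of all promoters. A match is a run of letters and was not tested for binding.

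Other genes of the amino acid response, the program through which ATF4 raises amino acid synthesis and uptake, were taken as a list of 10. With RAS 7 were called higher and 0 lower, and with knockdown 0 were higher and 6 lower (ATF4, PSAT1, CHAC1, TRIB3, DDIT3 and DDIT4), with list medians of 0.86 and -0.49. The share higher with RAS was 70%, beside 24.0% of all genes, and the share lower with knockdown was 60%, beside 8.06%. PSAT1, an enzyme of serine synthesis, went from 9.44 ± 1.2 to 25.9 ± 2.28 and 9.10 ± 1.77 CPM in control, siControl RAS and knockdown cells. ATF4 itself went from 271 ± 7.62 to 383 ± 42.6 and 319 ± 16.3 CPM (log2 -0.26, SE 0.08, edgeR adjusted p = 0.0258 with knockdown). Of the 25 amino acid carriers, 10 were called higher with RAS, SLC38A2 among them. The 4 called lower were SLC7A5, SLC3A2, SLC7A1 and SLC38A1. Whether ATF4 has a part in these changes was not tested. MPC1 and MPC2, the subunits of the mitochondrial pyruvate carrier, were lower with RAS in a list of partners and chaperones (-1.08 and -0.98, edgeR adjusted p = 3.75e-04 and 1.47e-05). In that list 3 of 6 tested genes were higher and 2 lower with RAS, and 0 were higher and 2 lower after knockdown. Its called shares were 83.3% with RAS and 33.3% after knockdown, beside 45.9% and 15.5% of all genes.

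The iron importer SLC11A2 and the copper importer SLC31A1 rose with RAS and fell with knockdown. Of the 9 iron, copper, magnesium and heme carriers 4 were called higher and 1 lower with RAS, the 2 magnesium carriers among them being SLC41A2 (higher) and SLC41A3 (lower), and 2 were called lower after knockdown. These are called shares of 55.6% and 22.2%, beside 45.9% and 15.5% of all genes. Among genes with a mean of at least 5 CPM the shares were 53.2% and 19.2%, so the share with RAS was near that background. SLC11A2, the ferrous iron importer DMT1, measured 40.3, 34.6 and 44.2 CPM in control, 211, 252 and 209 in siControl RAS and 112, 113 and 109.8 in knockdown libraries. Its rise was 5.64-fold (log2 2.50, SE 0.11, edgeR adjusted p = 3.47e-20), and knockdown libraries, which were close to each other, lay apart from both other groups (log2 -1.01, SE 0.10, edgeR adjusted p = 1.10e-09). SLC31A1, the high-affinity copper importer, measured 65.0, 61.9 and 73.4 CPM in control, 123, 115 and 113 in siControl RAS and 90.4, 79.5 and 75.7 in knockdown libraries. Both steps were called (log2 0.81, SE 0.11, edgeR adjusted p = 2.09e-07 with RAS, and log2 -0.52, SE 0.11, edgeR adjusted p = 8.07e-04 with knockdown). The iron exporter SLC40A1 was low, at 0.625, 4.45 and 2.16 CPM in control and 10.1, 11.1 and 7.13 in siControl RAS libraries, and higher with RAS (log2 1.96, SE 0.47, edgeR adjusted p = 8.28e-04). After knockdown it stood at 4.47, 6.48 and 8.04, which was not called (log2 -0.57, SE 0.44).

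Zinc carriers of the SLC39 (import into the cytosol) and SLC30 (removal from it) families were called in both directions. SLC39A14, an importer of zinc and of iron not bound to transferrin, measured 32.0, 43.3 and 29.4 CPM in control, 179, 191 and 187 in siControl RAS and 89.0, 149 and 123 in knockdown libraries. The rise with RAS was 5.30-fold (log2 2.41, SE 0.20, edgeR adjusted p = 2.66e-07). The fall with knockdown (log2 -0.62, SE 0.19, edgeR adjusted p = 0.0383) rests on libraries that spread widely, and it lost its call without knockdown replicate 1 or 3 or any siControl RAS library (edgeR adjusted p of 0.0661 to 0.104). SLC39A8, a close relative, had counts in 1 of 3 control libraries (0, 2.14 and 0 CPM) and in all siControl RAS libraries (7.49, 5.81 and 6.06), and was called higher (log2 3.16, SE 0.77, edgeR adjusted p = 0.00202). SLC30A1, which exports zinc across the plasma membrane, went the other way, from 29.1, 30.0 and 24.8 CPM in control to 14.8, 19.7 and 12.1 in siControl RAS libraries (log2 -0.85, SE 0.24, edgeR adjusted p = 0.00343). Knockdown libraries stood at 15, 22.2 and 34.3, a spread that overlaps both groups, and the change of 0.63 was not called (edgeR adjusted p = 0.0721) unless knockdown replicate 1 (0.00903) or siControl RAS replicate 2 (0.036) was left out or low counts were not filtered (0.0416). SLC39A6, the zinc carrier with the most counts, rose from 206 ± 10.4 to 306 ± 6.25 CPM (log2 0.57, SE 0.07, edgeR adjusted p = 3.86e-08) and was at 277 ± 14.7 after knockdown. SLC39A9, SLC39A13 and SLC30A7 were the other zinc members called higher, and SLC39A3 and SLC39A10 the others called lower, with RAS.

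The genes beside these carriers were given as lists. Among 8 genes of iron and copper handling, 5 were called higher and 0 lower with RAS, and 0 were higher and 3 lower after knockdown (TFRC, FTH1 and ATP7A). The share higher with RAS was 62.5%, beside 24.0% of all genes, and the share lower after knockdown was 37.5%, beside 8.06%. TFRC, the transferrin receptor, went from 97.8 ± 10.4 to 197 ± 12.8 and 117 ± 14.4 CPM, and FTH1, the ferritin heavy chain, from 2869 ± 79.7 to 5394 ± 67.4 and 2767 ± 98.9, in control, siControl RAS and knockdown cells. Of 6 zinc response genes tested, 2 were higher and 1 lower with RAS, and 1 was higher and 1 lower after knockdown. Those are called shares of 50% and 33.3%, beside 45.9% and 15.5% of all genes. MT1X, a metallothionein, went from 54.1 ± 4.55 to 100.3 ± 4.03 and 67.6 ± 7.11 CPM, whereas MT1E went from 548 ± 9.59 to 430.2 ± 19.1 and 632 ± 111. Metallothionein genes are near-identical copies, and the authors' counting may have split reads between them.

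**Figure D4:**
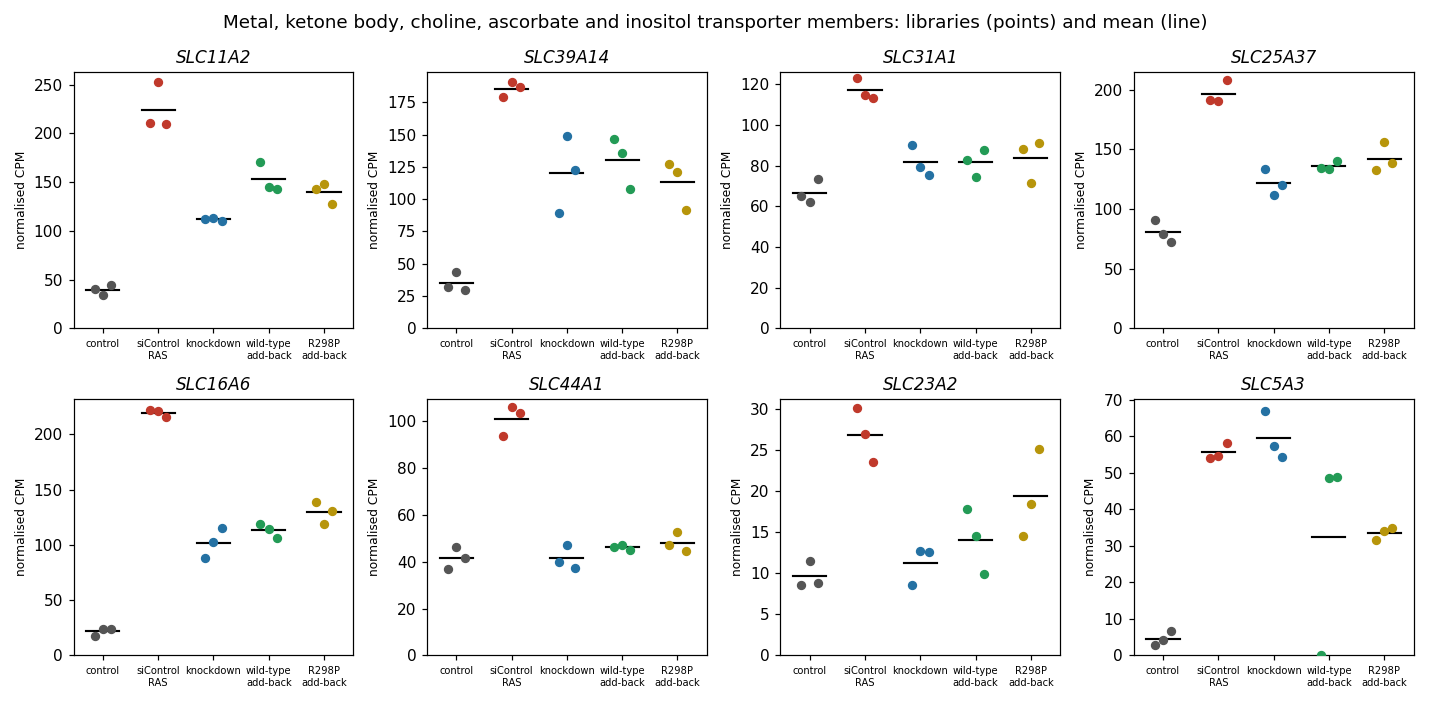
Normalised CPM (y axis, from 0) of 8 carriers of metals, ketone bodies, choline, ascorbate and inositol in 15 libraries (points) and group means (lines). The first 7 are highest in siControl RAS cells, and SLC5A3 has 1 wild-type add-back library at 0 CPM.

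Mitochondrial carriers, which exchange metabolites across the inner membrane, were the largest class and had the most members lower in senescent cells. Those were 12 of 34 (35.3%), beside 21.9% of all genes and 25.9% of genes with a mean of at least 5 CPM. By share, more were lower in the small vitamin (50% of 4), phosphate (50% of 2) and nucleotide sugar (40% of 5) classes. SLC25A6, an ADP/ATP exchanger and the member of the class with the most counts, measured 444, 420.2 and 426 CPM in control, 244, 251 and 237 in siControl RAS and 350.3, 305 and 343 in knockdown libraries. The 3 groups did not overlap (log2 -0.82, SE 0.07, edgeR adjusted p = 7.46e-12 with RAS, and log2 0.45, SE 0.07, edgeR adjusted p = 1.20e-05 with knockdown), and knockdown cells were still 0.37 lower than control on the log2 scale. Its paralogue SLC25A5 went from 107, 103 and 139 CPM in control to 52.0, 54.9 and 60.8 in siControl RAS libraries (log2 -1.06, SE 0.20, edgeR adjusted p = 2.90e-04) and stood at 48.4, 78.9 and 72.9 after knockdown, which was not called. SLC25A4, the form typical of muscle, was not called with RAS, at 16.1 ± 1.07 and 18.3 ± 1.31 CPM. The 3 paralogues are similar in sequence and have processed copies, and SLC25A6 lies in the region that the sex chromosomes share, so how reads were divided is uncertain.

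The phosphate carrier SLC25A3 fell from 369 ± 27.2 to 264 ± 12.5 CPM (log2 -0.49, SE 0.07, edgeR adjusted p = 1.63e-06), and the citrate carrier SLC25A1 from 60.3 ± 15.5 to 42.7 ± 2.81 (log2 -0.50, SE 0.19, edgeR adjusted p = 0.0341). Members outside the naming rule, such as these 2, are examples picked after their values were seen. The calcium-regulated ATP-Mg/phosphate carriers parted: SLC25A24 fell from 120.3 ± 2.78 to 83.2 ± 5.12 CPM and SLC25A25 from 22.2 ± 6.66 to 9.39 ± 1.36, while SLC25A23 rose from 28.0 ± 3.49 to 47.8 ± 2.70 (log2 -0.53, -1.23 and 0.77, all called by edgeR). SLC25A39, the glutathione importer, was at 102, 93.1 and 109 CPM in control, 72.9, 69.7 and 95.7 in siControl RAS and 107, 103 and 106 in knockdown libraries. One siControl RAS library lay within the control range, and both its calls (log2 -0.35, SE 0.11, edgeR adjusted p = 0.00937 with RAS, and log2 0.41, SE 0.11, edgeR adjusted p = 0.00911 with knockdown) were lost without siControl RAS replicate 1 or 2 (edgeR adjusted p of 0.0618 to 0.0804). Without control replicate 3 the RAS call was also lost (0.0514). Those called lower also include SLC25A14, SLC25A22, SLC25A30, SLC25A32 and SLC25A40, of which SLC25A22, SLC25A30 and SLC25A40 are under 10 CPM in every group. Control was the highest group of these low ones, at 8.59, 8.07 and 7.63 CPM before TMM scaling.

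SLC25A37 and SLC25A36 were called higher with RAS and lower with knockdown. SLC25A37 (mitoferrin 1), which brings iron into mitochondria, measured 90.5, 79.1 and 71.9 CPM in control, 191, 190.2 and 208 in siControl RAS and 133, 111 and 120.3 in knockdown libraries (log2 1.29, SE 0.10, edgeR adjusted p = 2.08e-13 with RAS, and log2 -0.69, SE 0.09, edgeR adjusted p = 9.85e-07 with knockdown). SLC25A36, a pyrimidine nucleotide carrier, measured 62.7, 50.2 and 59.4, 173, 163 and 183 and 106, 101 and 99.8 CPM in the same groups (log2 1.59, SE 0.10, edgeR adjusted p = 1.71e-15, and log2 -0.76, SE 0.10, edgeR adjusted p = 2.65e-07). For both, knockdown libraries lay between those of control and siControl RAS cells without overlap. SLC25A28 (mitoferrin 2) was called in neither comparison, with group means of 16.9, 20.4 and 22.2 CPM in control, siControl RAS and knockdown cells.

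**Figure D5:**
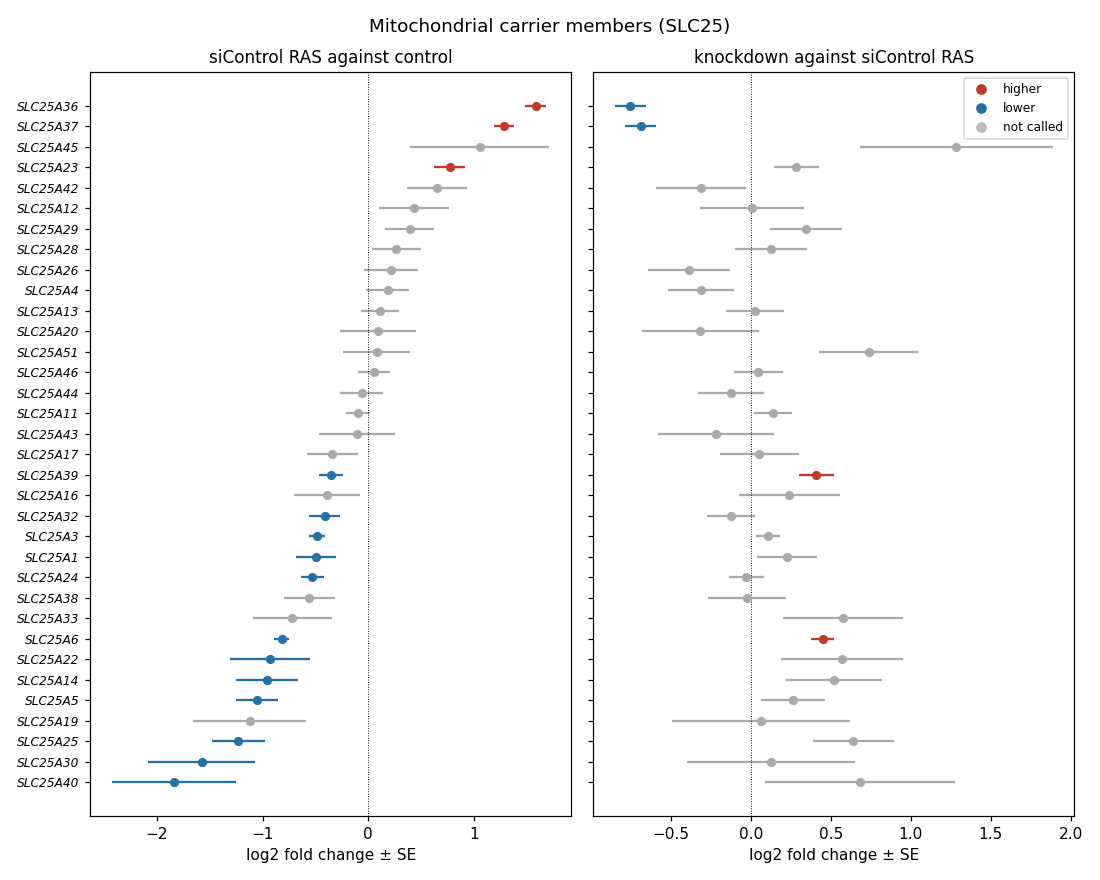
Log2 fold change ± SE (x axes) of the 34 mitochondrial carrier members, ordered by their change with RAS and coloured by call. With RAS 12 are called lower and 3 higher (left), and after knockdown SLC25A36 and SLC25A37 are lower and SLC25A6 and SLC25A39 higher (right).

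In the carboxylate and the lipid and choline classes, SLC16A6 and SLC44A1 were the members called after knockdown, 1 of 4 (25%) and 1 of 8 (12.5%). Of all genes 15.5% were called there, and 19.2% of genes with a mean of at least 5 CPM. SLC16A6, an exporter of the ketone body beta-hydroxybutyrate, measured 17.7, 23.9 and 24.1 CPM in control, 222, 221 and 216 in siControl RAS and 88.4, 102 and 115 in knockdown libraries. Its rise with RAS was 10.04-fold (log2 3.33, SE 0.12, edgeR adjusted p = 1.69e-22), and after knockdown it was lower (log2 -1.10, SE 0.10, edgeR adjusted p = 4.02e-10) yet above control in every library. SLC44A1, a choline carrier that feeds phosphatidylcholine synthesis, measured 36.7, 46.3 and 41.6 CPM in control, 93.4, 106 and 103 in siControl RAS and 40.0, 46.9 and 37.1 in knockdown libraries. Knockdown and control libraries overlapped (log2 -0.004, SE 0.13), and both lay below every siControl RAS library (log2 1.28, SE 0.13, edgeR adjusted p = 1.83e-10 with RAS, and log2 -1.28, SE 0.13, edgeR adjusted p = 1.32e-09 with knockdown). SLC44A2, its relative, rose with RAS from 83.7 ± 0.628 to 129 ± 3.67 CPM (log2 0.62, SE 0.09, edgeR adjusted p = 5.82e-07) and stood at 129 ± 13.3 after knockdown (log2 2.4e-05, SE 0.09). SLC16A4, a monocarboxylate carrier family member, was lower with RAS, at 11.2 ± 2.03 against 6.27 ± 1.32 CPM (log2 -0.83, SE 0.32, edgeR adjusted p = 0.0302), a call lost without control replicate 2 or 3 or siControl RAS replicate 2 or 3, or with no filter on low counts (edgeR adjusted p of 0.0708 to 0.115). The other lipid and choline members called higher were SLC10A7, SLC27A3 and SLC33A1, and SLC16A7 was the other carboxylate carrier called higher.

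Of the sugar and polyol carriers, those of myo-inositol moved most. SLC5A3, the sodium-coupled inositol carrier, measured 2.81, 4.12 and 6.82 CPM in control, 53.9, 54.7 and 58.1 in siControl RAS and 66.9, 57.4 and 54.3 in knockdown libraries (log2 3.60, SE 0.91, edgeR adjusted p = 0.00723 with RAS). Wild-type add-back replicate 1 had 0 counts of SLC5A3, where replicates 2 and 3 had 325 and 260 counts, and this library enters the SE of every comparison in the shared fit. The RAS call was also made without that library. MRPS6, whose gene model overlaps SLC5A3 on the same strand in the GENCODE annotation, had 201 counts in that library and 238 and 131 in the other 2. It measured 8.28, 13.2 and 9.98 CPM in control and 43.0, 42.2 and 29.9 in siControl RAS libraries, so its libraries too were higher with RAS. How reads of the locus were divided is uncertain, and whether the rises of the 2 genes are separate was not tested. SLC2A13, the proton-coupled inositol carrier, measured 9.22, 10.7 and 15.1 CPM in control, 29.4, 36.5 and 25.1 in siControl RAS and 11, 18.8 and 14.4 in knockdown libraries (log2 1.38, SE 0.26, edgeR adjusted p = 4.17e-05 with RAS, and log2 -1.03, SE 0.26, edgeR adjusted p = 0.00411 with knockdown). Knockdown libraries overlapped control and lay below siControl RAS libraries. SLC2A6, SLC2A10, SLC37A3 and SLC50A1 were also called higher with RAS, with changes of 0.41 to 1.25, and none of these 4 was called after knockdown.

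Among inorganic ion carriers, the sodium-bicarbonate transporters went apart. SLC4A7 rose from 101 ± 21.1 to 226 ± 3.01 CPM with RAS (log2 1.16, SE 0.12, edgeR adjusted p = 8.84e-09). SLC4A8 fell from 21.0 ± 2.46 to 6.17 ± 2.60 (log2 -1.76, SE 0.32, edgeR adjusted p = 1.85e-05). SLC4A4 measured 82.2, 73.6 and 67.5 CPM in control, 54.8, 54.7 and 49.6 in siControl RAS and 90.0, 85.7 and 83.4 in knockdown libraries, so that it was lowest in siControl RAS cells (log2 -0.49, SE 0.11, edgeR adjusted p = 4.07e-04) and after knockdown above every siControl RAS and every control library (log2 0.70, SE 0.11, edgeR adjusted p = 1.11e-05). SLC12A2, the sodium-potassium-chloride cotransporter, was called in neither comparison (59.7 ± 2.08, 53.3 ± 4.08 and 49.0 ± 2.15 CPM). SLC12A7, SLC12A8, SLC26A6 and SLC26A11 were among the other members of the class called higher with RAS. The phosphate importer SLC20A1, at 398 ± 4.70 CPM in control, rose to 586 ± 32.5 (log2 0.56, SE 0.07, edgeR adjusted p = 1.29e-08) and was 487 ± 25.7 after knockdown (log2 -0.27, SE 0.07, edgeR adjusted p = 0.00411), whereas its paralogue SLC20A2 fell with RAS (log2 -0.67, edgeR adjusted p = 0.0292).

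Vitamin, nucleoside and nucleotide sugar carriers are few. The ascorbate carrier SLC23A2 measured 8.60, 11.5 and 8.82 CPM in control, 30.1, 27.0 and 23.5 in siControl RAS and 8.53, 12.7 and 12.6 in knockdown libraries, so that knockdown and control overlapped below siControl RAS (log2 1.48, SE 0.25, edgeR adjusted p = 8.45e-06 with RAS, and log2 -1.24, SE 0.25, edgeR adjusted p = 3.63e-04 with knockdown). SLC5A6, which carries biotin and pantothenate, and SLC52A2, which carries riboflavin, fell with RAS from 26.2 ± 2.03 to 13 ± 4.71 and from 52.9 ± 5.43 to 37.1 ± 6.2 CPM (edgeR adjusted p = 5.49e-04 and 0.0047). SLC43A3, a purine nucleobase carrier, rose from 18.3 ± 2.66 to 61.8 ± 9.52 CPM (log2 1.75, SE 0.20, edgeR adjusted p = 1.01e-08) and was 35.7 ± 8.65 after knockdown (log2 -0.78, SE 0.19, edgeR adjusted p = 0.00381). The nucleoside carrier SLC29A1 was lower with RAS, at 19.3 ± 4.85 against 10.9 ± 1.94 CPM (log2 -0.82, SE 0.30, edgeR adjusted p = 0.0235), a call lost without control replicate 1 (0.145) or siControl RAS replicate 3 (0.0991). In the Golgi family SLC35A, the CMP-sialic acid carrier SLC35A1 rose from 11.3 ± 2.17 to 20.5 ± 2.69 CPM and the UDP-N-acetylglucosamine carrier SLC35A3 fell from 29 ± 2.91 to 16.5 ± 4.55 (log2 0.86 and -0.82, edgeR adjusted p = 0.00342 and 0.00192). SLC35A4 stood at the edge of the threshold (log2 -0.48, edgeR adjusted p = 0.0477) and lost its call in 9 of the other fits.

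Some of the largest relative rises came from carriers near the detection limit in control cells. SLC15A3, a lysosomal carrier of histidine and small peptides, measured 0.625, 1.32 and 3.33 CPM in control and 28.7, 20.8 and 17.5 in siControl RAS libraries (log2 3.67, SE 0.36, edgeR adjusted p = 3.31e-10), and its relative SLC15A4 rose from 37.2 ± 4.13 to 61.5 ± 4.85 CPM (log2 0.72). SLC14A1, a urea carrier, measured 2.19, 3.29 and 1.33 CPM in control and 18.7, 21.2 and 21.4 in siControl RAS libraries (log2 3.15, SE 0.26, edgeR adjusted p = 3.59e-12). After knockdown neither SLC15A3 (22.6 ± 6.66 CPM) nor SLC14A1 (24.2 ± 1.35) was called. SLC22A17, a receptor for lipocalin 2, rose from 25.2 ± 4.42 to 90.3 ± 5.83 CPM (log2 1.84, SE 0.14, edgeR adjusted p = 5.28e-13) and was 58.6 ± 5.93 after knockdown (log2 -0.62, SE 0.13, edgeR adjusted p = 9.09e-04). SLC22A23, an orphan member of the same family, rose from 2.22 ± 2.29 to 10.6 ± 2.65 CPM (log2 2.23, SE 0.47, edgeR adjusted p = 1.92e-04). SLC17A5, the lysosomal sialic acid exporter, rose from 77.0 ± 2.92 to 113 ± 3.79 CPM (log2 0.56, SE 0.09, edgeR adjusted p = 8.16e-06) and was 115 ± 8.57 after knockdown. SLC66A3 was among the members of the organic ion class called lower with RAS.

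Add-back of METTL14 moved few transporters. Wild-type add-back against knockdown called 1 of 152 members (0.658%), beside 0.621% of all genes (0.326% higher and 0.296% lower). That member was the iron importer SLC11A2, at 112, 113 and 109.8 CPM in knockdown and 171, 145 and 143 in wild-type add-back libraries, all 3 above knockdown and below the siControl RAS libraries (log2 0.45, SE 0.10, edgeR adjusted p = 0.0154). The call was lost without knockdown replicate 2 (edgeR adjusted p = 0.0509) or 3 (0.0912) or wild-type add-back replicate 1 (0.232), the highest of its group. R298P add-back libraries stood at 143, 148 and 128 CPM, also all above knockdown (log2 0.32, SE 0.10, edgeR adjusted p = 0.133, not called), and the add-backs did not differ detectably from each other (log2 0.13, SE 0.10, edgeR adjusted p = 1). Of the 8 genes of iron and copper handling, 1 (12.5%) was called with wild-type add-back and 0 with R298P, beside 0.621% and 1.09% of all genes. That gene was FTH1, higher with wild-type add-back (log2 0.19, SE 0.05, edgeR adjusted p = 0.0455) and not called with R298P (log2 0.10, edgeR adjusted p = 0.487). In FTH1 too the add-backs did not differ detectably from each other (log2 0.088, SE 0.047, not called).

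R298P add-back against knockdown called 0 members by edgeR, beside 1.09% of all genes (0.54% higher and 0.555% lower), and 0 by DESeq2. At an unadjusted edgeR p under 0.05 stood 13 of 152 members, beside 1220 of 13516 genes. Between the add-backs edgeR called 0 members, beside 0.0222% of all genes (0.0148% higher and 0.0074% lower), and DESeq2 called 0. DESeq2 gave an adjusted p to only 2055 genes in this comparison, and a member without one could not be called. Here 5 of 152 members had an unadjusted edgeR p under 0.05, beside 665 of 13516 genes. SLC5A3 was at 31.5, 34.1 and 34.9 CPM in R298P libraries, all below knockdown (log2 -0.83, SE 0.73). It was called lower there once wild-type add-back replicate 1, which is in neither of these groups, left the fit (edgeR adjusted p = 0.00352) and in a fit of only the 6 libraries compared (0.00319). Apart from SLC11A2, none of the 19 members lower after knockdown was called by edgeR in either add-back. SLC7A5 was at 44.5, 46.2 and 45.1 CPM with wild-type and 39.9, 47.0 and 40.3 with R298P add-back, beside 43.3, 34.6 and 31.8 in knockdown libraries. SLC3A2 was at 29.3, 27.2 and 34.6 CPM with wild-type and 33.9, 31.0 and 33.3 with R298P add-back, all below its knockdown libraries (log2 -0.32 and -0.21, not called). SLC16A6 was at 119, 114 and 106 with wild-type and 139, 119 and 131 with R298P add-back, where the R298P libraries lay above knockdown (log2 0.34, SE 0.10, edgeR adjusted p = 0.123, not called). SLC44A1 was at 46.1 ± 1.02 and 48.1 ± 4.28 CPM, with every library below those of siControl RAS cells (101 ± 6.53). A p that misses the threshold does not show that these levels are equal.

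Knockdown against control places the knockdown level beside cells without RAS. There 64 members (42.1%) were called, 44 higher (28.9%) and 20 lower (13.2%), beside 36.0%, 19.2% and 16.7% of all genes. Among genes with a mean of at least 5 CPM these shares were 42.3%, 22.5% and 19.8%. SLC16A6, SLC11A2, SLC39A14 and SLC6A15 were above control with changes of 2.22, 1.49, 1.79 and 1.49, and SLC7A5, SLC3A2 and SLC7A1 were below it with -1.93, -1.41 and -0.94, all called by edgeR. SLC44A1, SLC23A2, SLC2A13 and SLC4A4 were not called (log2 -0.004, 0.23, 0.35 and 0.21). Carriers whose symbols fall outside the naming pattern, the SLC35B to SLC35G and SLCO families, had 7 higher and 3 lower of 20 tested with RAS, and 0 higher and 3 lower after knockdown (SLC35E1, SLC35F5 and SLCO4A1). These are 50% with RAS and 15% after knockdown, near the 45.9% and 15.5% of all genes called. SLCO4A1, an organic anion carrier, went from 3.80 ± 2.00 to 16.7 ± 2.79 and 6.35 ± 1.77 CPM in control, siControl RAS and knockdown cells.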

How the data were processed

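Per the labels' protocols, a Lexogen QuantSeq kit was used on total RNA. QuantSeq is known as a 3′ tag method, in which a transcript gives about 1 tag whatever its length. The authors deposited raw counts per gene as whole numbers in 1 table of 15 libraries. The submitters' processing notes name Bowtie2, RSEM 1.2.12 and hg19, with no role given. Strand settings, the annotation and any rounding are not stated there, and transcripts that share a 3′ end, overlapping genes and close paralogues are not told apart. Gene names came from a symbol table and a GENCODE annotation, which named 52301 of 57736 IDs.

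Counts were filtered with filterByExpr, scaled by TMM and fitted for 13516 genes in 1 model of all 5 groups with edgeR 4.0.16 in R 4.3.3 (robust quasi-likelihood F test, Benjamini-Hochberg adjustment over all genes tested, threshold 0.05). A common biological variation of 16.7% set the precision, beside library totals of 4917661 to 7763084 counts. The script was tested on simulated counts. Alternatives were DESeq2 1.42.0, other scalings, no filter, a 1.5-fold minimum, only the 6 libraries compared, leaving out each library, and a replicate block. A fit without the library that had no SLC5A3 count was added after seeing the data.

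Members, substrate classes and gene lists were chosen with earlier results of these data known. By rule the text names the 10 higher and 10 lower called members with the largest change in siControl RAS against control and in knockdown against siControl RAS, among those with a mean of at least 10 CPM in 1 of the groups compared, the called members of each add-back comparison, the member of each class with the highest mean, and 20 carriers listed by name. Other members were picked after their values were seen, and a few genes are counted but not reported here by name. Libraries were treated as unpaired. Promoter sequences are from RefSeq (GRCh38.p14) and were used for letters only, with no coordinates joined to the hg19 counts.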

Additional observations from a re-analysis of the deposited data

How the results depend on the processing

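No called change of a named gene changed sign under the alternatives run. The sign did change in 156 alternative fits of 73 named-gene changes, none of them called in the reported fit or in the alternative. Of the fits of single named genes under alternatives, 3509 kept their side of the threshold, 10 gained a call and 80 lost one. With RAS, 84 members were called, with 73 to 82 when each library was left out, 78 by DESeq2 and 64 with a 1.5-fold minimum. With knockdown the count was 23, with 19 to 23 when each library was left out, 22 by DESeq2 and 16 with a 1.5-fold minimum. For knockdown against control it was 64, with 55 to 60 when each library was left out and 45 with that minimum. In wild-type add-back against knockdown the count of 1 fell to 0 with a 1.5-fold minimum and ranged from 0 to 1 when each library was left out. In R298P add-back against knockdown the count of 0 became 1 (SLC5A3, lower) with only the 6 libraries compared and 1 in the fit of 14 libraries without wild-type add-back replicate 1, an alternative chosen after seeing the data. Scaling moved the median change of all genes by -0.037 to 0.033 on the log2 scale. With the replicate number as a block, the counts were 83, 23, 1, 0, 0 and 66 in the 6 comparisons. Libraries were treated as unpaired, since no pair of same-numbered libraries had a correlation of deviations over 0.1 (-0.081 to 0.098). A single count stood for up to 0.203 CPM, so small changes of members near 5 CPM were not detectable at this depth.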

Other observations

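The summed level of the 152 transporters was lowest in control cells, at 6605 ± 78.7 CPM (SD, n = 3), and highest in siControl RAS cells, at 8168 ± 96.0. It was 7310 ± 77.5 in knockdown, 7395 ± 66.2 in wild-type add-back and 7462 ± 30.4 in R298P add-back cells. The sum of the 34 mitochondrial carriers went the other way, from 1757.9 to 1863.2 CPM in control libraries to 1545.8 to 1639.7 in siControl RAS libraries. Knockdown libraries, at 1579.9 to 1656.2 CPM, overlapped siControl RAS libraries. Wild-type and R298P add-back libraries stood at 1656.8 to 1700.2 and 1661.1 to 1712.7 CPM. The 4 carboxylate carriers, of which SLC16A6 is the largest, summed to 56.6 ± 9.38 CPM in control and 264 ± 5.11 in siControl RAS cells, and the 9 iron, copper, magnesium and heme carriers to 196 ± 9.19 and 443 ± 17.1. The families also differed in how many of their genes reached 5 CPM. All 5 carriers of nucleotide sugars did, as did 34 of 47 mitochondrial carriers and 17 of 24 zinc carriers, beside 2 of 20 carriers of neurotransmitters and vesicles. Of 19 carriers of carboxylates 4 are members, and SLC16A1 and SLC16A3 also reached that level but were left out by name.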
